A study of Arabidopsis thaliana with 2 samples.

Results

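The NAC family is a large group of plant transcription factors that share an amino-terminal DNA-binding domain, and 49 of its Arabidopsis members were examined here by gene identifier. Of these, 33 were listed in the deposited expression table of 11666 genes. They included 4 of the 6 NAC genes that carry a site for the microRNA miR164 and 29 of the 43 without one. CUC2 and NAC100, which carry the site, were not analysed here, nor were CUC3, ORS1, ANAC032, ANAC053, ANAC060, NTL9, ANAC046, ANAC103, SMB, FEZ, XND1, ANAC050, ANAC025 and ANAC028. The family list was drawn up with the RPKM values of this table already known, so every count below is a description and none is tested.

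RNA-seq was carried out on whole 12-day-old Arabidopsis thaliana seedlings, 1 library from ago1-36, a mutant of ARGONAUTE1 (AGO1), and 1 library from the wild type, with about 13590000 and 13670000 reads. Both genotypes were grown on sucrose-containing Murashige and Skoog plates in long days, and the labels give neither the lesion of the ago1-36 allele nor the number of pooled seedlings. AGO1 had 5.59 RPKM (reads scaled by gene length and library size) in ago1-36 and 48.6 RPKM in wild-type, which goes with the labels. No difference has a replicate check, and intervals given with folds are exact 95% Clopper-Pearson intervals that cover counting error only. In whole seedlings, fewer cells of a type and less RNA per cell cannot be told apart. Markers of root hairs were lower in ago1-36 in all 4 listed cases, summing to 8.37 RPKM in ago1-36 and 41.3 RPKM in wild-type. Xylem markers were lower in all 4 listed cases (26 and 51.9 RPKM), leaf mesophyll markers were lower in all 5 (4805 and 8631 RPKM), and seed storage markers were higher in all 5 (59.4 and 0.448 RPKM, with CRB and SESA1 at 0 in wild-type). Of the seed storage markers, CRB stayed under the filter of 1 RPKM and the other 4 passed it through ago1-36 alone. After adding 1 to RPKM, 4 root hair, 1 xylem and 3 leaf mesophyll markers were at least 2-fold lower, against a background of 8.38%. The 4 seed storage markers past the filter were at least 2-fold higher, against a background of 19.6%. Whether these shifts have a part in the NAC values was not tested.

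MicroRNAs guide AGO1 to complementary transcripts, which are then cut or held back from translation. miR164 is made from 3 Arabidopsis loci and is known for limiting NAC transcripts at organ boundaries, in lateral roots and in ageing leaves. Other NAC proteins respond to jasmonate, abscisic acid, pathogens and organelle stress, and some are held at membranes by a carboxy-terminal anchor and released by proteolysis.

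The mature miR164 sequences show what the target sites have to pair with. They were read from the TAIR10.1 genome at the positions of the RefSeq annotation and are written 5′ to 3′ as DNA letters, with the seed (bases 2 to 8) in capitals. miR164a lies at chr2:19520770-19520790, miR164b at chr5:287586-287606 and miR164c at chr5:9852684-9852704, all on the plus strand.
miR164a: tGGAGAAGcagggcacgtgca
miR164b-5p: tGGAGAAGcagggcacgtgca
miR164c-5p: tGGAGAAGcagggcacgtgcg
The 3 share 1 seed, and miR164c differs from miR164a by A21G, counted from the 5′ end. None of the 3 MIR164 precursor genes was analysed here.

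The sites in the 6 target transcripts are shown because they define the targeted members. Each is written 5′ to 3′ on the transcript strand, with capitals at bases that do not form a Watson-Crick pair with miR164a. All 6 sites lie in coding sequence of the last exon.
NAC080: tTTacgtgccctgcttctcca
NAC100: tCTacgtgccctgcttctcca
NAC1: AgcacgtAccctgcttctcca
CUC1: AgcacgtgTcctgTttctcca
CUC2: AgcacgtgTcctgTttctcca
ORE1: CTcacgtgAcctgcttctccG
NAC080 has its site at chr5:2436958-2436978 on the plus strand, NAC1 at chr1:20947142-20947162 on the minus strand, CUC1 at chr3:5111137-5111157 on the plus strand and ORE1 at chr5:15858797-15858817 on the minus strand. With 1 point per mismatch and 0.5 per G:U pair, NAC080 and NAC100 scored 1.5, NAC1, CUC1 and CUC2 scored 2 and ORE1 scored 3.5. The best match in the 43 other NAC transcripts scored from 5.5 to 8.5. Across 11281 listed protein-coding genes, 3 scored 3 or less, namely NAC080, NAC1 and CUC1, and 22 scored 4 or less, ORE1 among them.

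The 4 listed miR164 targets went both ways. NAC1, which promotes lateral root formation downstream of auxin, had 17.2 RPKM in ago1-36 and 6.31 RPKM in wild-type, a 2.73-fold higher value (interval 2.25 to 3.32). It overlaps the listed gene AT1G56000 (12.7 RPKM in ago1-36 and 8.70 RPKM in wild-type), and 33.8% of its 50-base stretches also occur in the antisense gene AT1G08087, against 4.4% shared with AT1G56000, so these reads cannot be assigned to one gene. CUC1, a boundary gene needed to form the shoot meristem and separate the cotyledons, had 17 reads (1.28 RPKM) in ago1-36 and 0 reads in wild-type. Set against a floor of 3 reads it was 5.70-fold higher, while the lower counting limit was 4.15-fold, and 0 reads do not show absence at this depth.

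NAC080 (AT5G07680) had 3.35 RPKM in ago1-36 and 7.34 RPKM in wild-type, a 2.19-fold lower value (interval 1.62 to 3.00). ORE1, a promoter of age-dependent leaf senescence, had 41 reads (2.54 RPKM) in ago1-36 and 65 reads (4.0 RPKM) in wild-type, 1.58-fold lower (interval 1.05 to 2.39). By site score, the listed target with the lowest score, NAC080, was lower in ago1-36, and NAC1 and CUC1, both with a score of 2, were higher. ORE1, with the weakest pairing, was lower. CUC1 was kept through ago1-36 alone, which set its direction, and part of the reads of NAC1 cannot be assigned to one gene. Whether site score has a part in these differences was not tested. No target exceeded 17.2 RPKM in either library.

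Across the listed NAC genes examined, higher values in ago1-36 were more frequent than in the table as a whole. A gene was counted at 2-fold after adding 1 to each RPKM value, which shrinks the differences of weakly expressed genes, among genes with at least 1 RPKM in 1 library. On that scale 20 of 33 NAC genes (60.6%) were at least 2-fold higher in ago1-36, against a background of 19.6% of 11373 genes. CUC1 and ANAC061 had 0 wild-type reads, and with such genes set at the floor CUC1 dropped under 2-fold (log2 ratio 0.90), which left 19 NAC genes (57.6%) against 19.4%, and 1 of the 4 miR164 targets in place of 2. No NAC gene was at least 2-fold lower, against a background of 8.38%, although by the plain RPKM ratio SND2 and NAC080 were. The plain ratio gave 21 higher and 2 lower NAC genes, against 23.9% and 11.9% of all kept genes. Every listed NAC gene passed the filter, but 7 did so through ago1-36 alone (CUC1, ANAC055, ANAC016, JUB1, ANAC090, ANAC061 and ANAC044), and their direction was set by it. Among the 26 with at least 1 RPKM in wild-type, 14 (53.8%) were at least 2-fold higher, against 15.6% of such genes, and none was at least 2-fold lower, against 8.94%.

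The median log2 ratio was 0.35 for the 4 miR164 targets (0.20 with CUC1 set at its floor), 1.39 for the 29 NAC genes without the site (1.14 with ANAC061 at its floor) and -0.04 for all kept genes. The genes nearest the 2-fold mark were NAP (log2 ratio 1.07) and ATAF1 (1.09) above it and ANAC016 (0.89) and ANAC089 (0.62) below it. The deposited table is thin in small positive differences. It holds 38 kept genes with a log2 ratio from 0.1 to 0.3, none of them a NAC gene, against 1417 from -0.4 to -0.2, so these shares describe the listed genes only.

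The summed level of the 33 genes was 1331 RPKM in ago1-36 and 610.3 RPKM in wild-type. The order of levels differed too. The 3 most abundant NAC transcripts in ago1-36 were ATAF2 at 136 RPKM, RD26 at 127 RPKM and ATAF1 at 124 RPKM, together 29.1% of the sum. In wild-type they were ANAC078 at 135 RPKM, VNI2 at 77.0 RPKM and ATAF1 at 57.6 RPKM, together 44.2%. The plot of levels in both libraries shows all 33 listed genes.

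**Figure D1:**
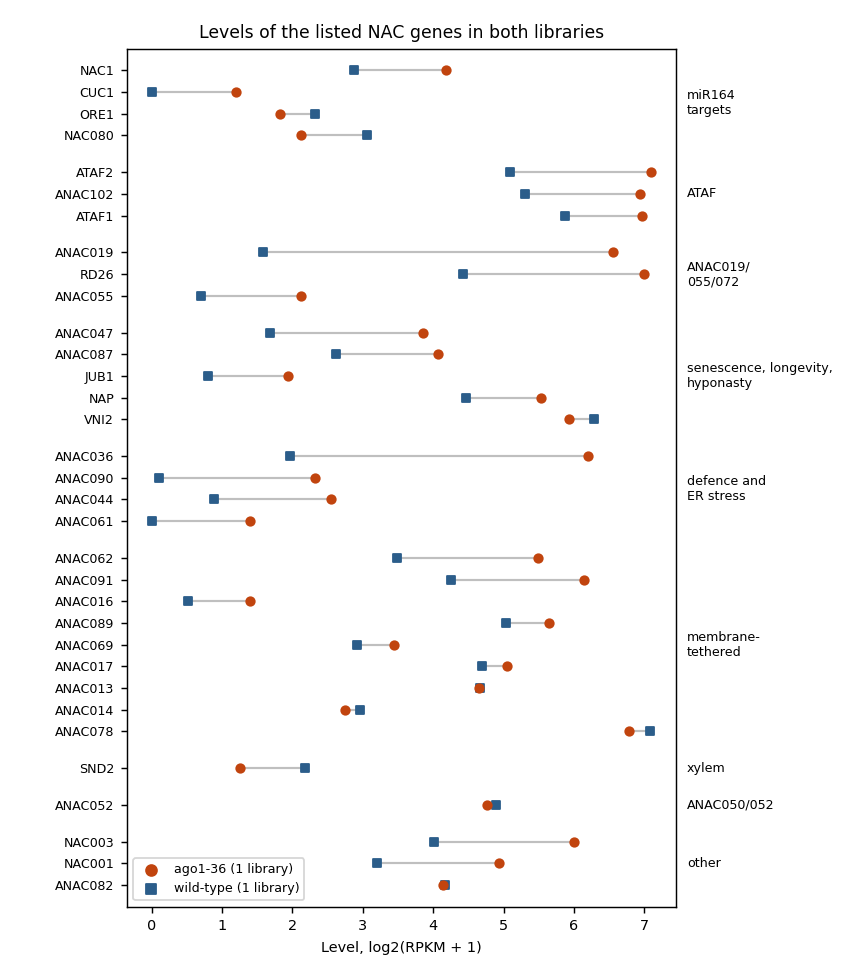
Levels of the 33 listed NAC genes as log2(RPKM + 1), circles for the ago1-36 library and squares for the wild-type library, grouped by role. The longest line belongs to ANAC019, with 93.0 RPKM in ago1-36 and 2.0 RPKM in wild-type, while ANAC013 and ANAC082 have nearly coinciding points.

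The ANAC019, ANAC055 and RD26 (ANAC072) genes encode close relatives that act downstream of jasmonate and abscisic acid. All 3 were at least 2-fold higher in ago1-36, against a background of 19.6%. ANAC055 was kept through ago1-36 alone, which set its direction. ANAC019 had 93.0 RPKM in ago1-36 and 35 reads (2.0 RPKM) in wild-type, 46.5-fold higher (interval 33.3 to 67.0), the largest log2 ratio on the scale of RPKM plus 1 among the listed NAC genes (4.97). RD26 had 127 RPKM in ago1-36 and 20.5 RPKM in wild-type, 6.19-fold higher (interval 5.64 to 6.81). ANAC055 stayed low in both, with 58 reads (3.35 RPKM) in ago1-36 and 11 reads (0.631 RPKM) in wild-type, 5.30-fold higher (interval 2.76 to 11.2). Within ago1-36 ANAC055 was thus far below its relatives.

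MYC2, the jasmonate regulator known to bind G-boxes upstream of this trio, had 387 RPKM in ago1-36 and 47.5 RPKM in wild-type, 8.16-fold higher. The 300 bases before the annotated start of ANAC019 are shown because that gene had the largest difference on the scale of RPKM plus 1. They lie at chr1:19698483-19698782 (TAIR10.1) and are written on the minus strand, the strand of the gene, with the G-box (CACGTG) in capitals, 126 bases before the start.
ANAC019: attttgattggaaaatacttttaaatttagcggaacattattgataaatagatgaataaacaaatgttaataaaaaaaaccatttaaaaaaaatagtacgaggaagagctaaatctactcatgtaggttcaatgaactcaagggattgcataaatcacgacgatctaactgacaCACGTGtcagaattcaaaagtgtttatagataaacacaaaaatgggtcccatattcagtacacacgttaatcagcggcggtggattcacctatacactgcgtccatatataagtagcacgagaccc
Neither RD26 nor ANAC055 held these letters in the same window. Searched on both strands, the G-box stood before 3 of the 20 NAC genes that were at least 2-fold higher and 2 of the 13 others, against 8.71% of 11280 listed genes and 10.3% of the higher ones. The W-box (TTGACC or TTGACT), bound by WRKY factors, stood before 6 of the 20 and 1 of the 13, against 33.2% of listed genes and 42.0% of the higher ones. The mitochondrial dysfunction motif stood before ANAC044 and ANAC017 alone among the listed NAC genes, against 1.12% of listed genes. Its letters can overlap those of a G-box. A match is only a match of letters.

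Of 7 other jasmonate and abscisic acid genes examined around this trio, 6 were listed, and 4 of these were at least 2-fold higher and 1 lower, against backgrounds of 19.6% and 8.38%. One of the 4, BSMT1, a salicylate methyltransferase gene, was kept through ago1-36 alone. DREB2A, a drought regulator that is also a target of JUB1, had 41.6 RPKM in ago1-36 and 13.0 RPKM in wild-type, and COR15A, a chloroplast cold-protection protein, had 74.3 and 22.2 RPKM. RD29B, an abscisic acid-responsive gene, had 2.1 RPKM in ago1-36 and 11.2 RPKM in wild-type, 5.35-fold lower (interval 4.06 to 7.15). RD29A, its neighbour with drought and cold response, had 106 and 62.9 RPKM.

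The ATAF subfamily links stress, abscisic acid and wounding to gene expression. Its 3 listed members were at least 2-fold higher in ago1-36, against a background of 19.6%. ATAF2, a regulator in wounding and pathogen response, had 136 RPKM in ago1-36 and 33.1 RPKM in wild-type, 4.11-fold higher (interval 3.74 to 4.51). ANAC102, known from low-oxygen germination, had 122 RPKM in ago1-36 and 38.4 RPKM in wild-type, 3.18-fold higher. ATAF1 had 124 RPKM in ago1-36 and 57.6 RPKM in wild-type, 2.15-fold higher (interval 2.0 to 2.32). The 3 levels in ago1-36 lay within 122 to 136 RPKM, whereas in wild-type they spread from 33.1 to 57.6 RPKM. ATAF1 overlaps AT1G01725 (29.7 RPKM in ago1-36 and 14.7 RPKM in wild-type) and ATAF2 overlaps AT5G08780 (7.21 and 4.49 RPKM), which leaves part of their reads uncertain. ATAF1 also shares 18.4% of its 50-base stretches with the antisense gene AT1G04043.

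**Figure D2:**
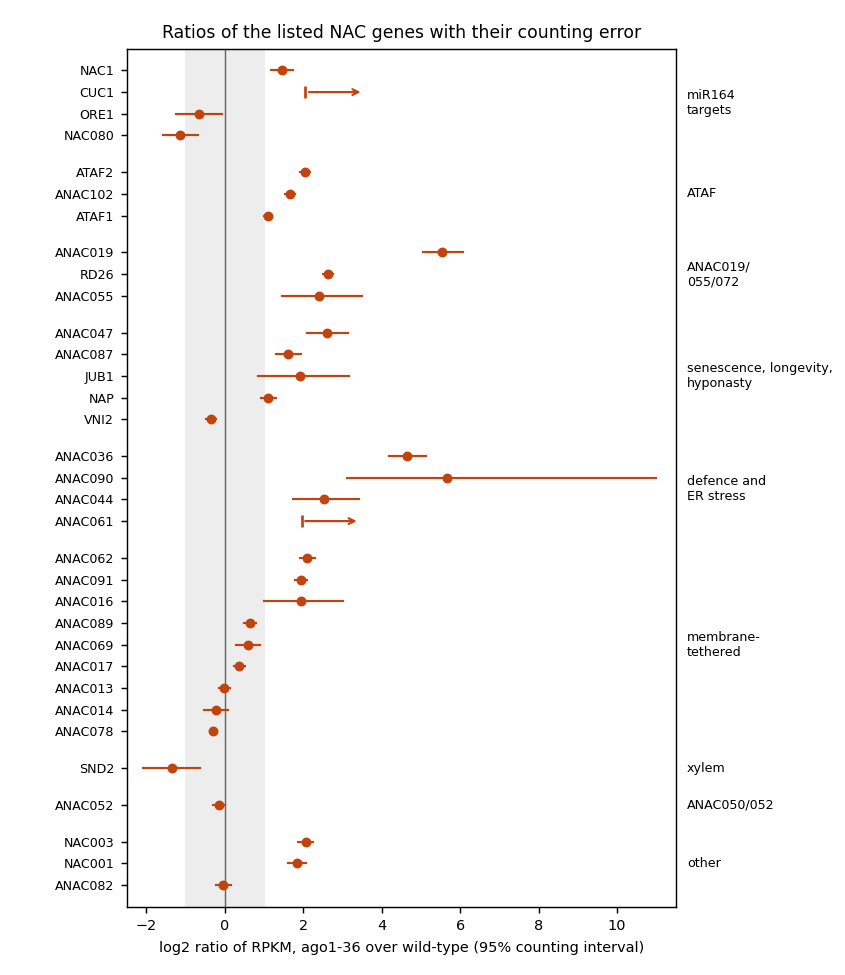
Log2 ratio of RPKM (ago1-36 over wild-type, nothing added) of the 33 listed NAC genes, with lines for the 95% counting interval, arrows from the lower limit for the 2 genes at 0 reads in wild-type, and shading for differences under 2-fold. ANAC090, ANAC019 and ANAC036 have the highest points, and the interval of ANAC090, with 1 read in wild-type, is the widest of those with both limits.

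Factors of senescence, longevity and leaf posture were at least 2-fold higher in 4 of 5 listed cases, against a background of 19.6%. Among the 4, JUB1 was kept through ago1-36 alone, which set its direction. ANAC047, which drives upward leaf movement in waterlogged plants, had 13.5 RPKM in ago1-36 and 2.22 RPKM in wild-type, 6.09-fold higher (interval 4.31 to 8.82). ANAC087, which acts in programmed cell death of the root cap, had 15.7 RPKM in ago1-36 and 5.12 RPKM in wild-type, 3.07-fold higher. NAP, a promoter of leaf senescence, had 45.4 RPKM in ago1-36 and 21.1 RPKM in wild-type, 2.15-fold higher (interval 1.89 to 2.47). JUB1, a gene that extends leaf life, had 34 reads (2.84 RPKM) in ago1-36 and 9 reads (0.746 RPKM) in wild-type, 3.8-fold higher with an interval of 1.78 to 9.01 that includes values under 2-fold. It overlaps AT2G42990 (0 RPKM in ago1-36 and 0.507 RPKM in wild-type), so its few reads are uncertain too. VNI2, a repressor of xylem vessel formation and of leaf ageing, had 60.1 RPKM in ago1-36 and 77.0 RPKM in wild-type.

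Genes known to act below ORE1 and NAP were mixed. Of 10, 7 were listed, 2 were at least 2-fold higher and 1 lower, against backgrounds of 19.6% and 8.38%. ACS2, an ethylene synthesis gene kept through ago1-36 alone, had 7.33 RPKM in ago1-36 and 0.479 RPKM in wild-type, 15.3-fold higher (interval 8.75 to 29.3), and SAG113, a phosphatase gene activated by NAP, had 25.3 and 11.2 RPKM. AAO3, an abscisic acid synthesis gene activated by NAP, and NYE1, a chlorophyll breakdown gene activated by ORE1, had log2 ratios of 0.93 and 0.85. SAG29 (SWEET15), a sucrose transporter gene, had 1.41 RPKM in ago1-36 and 73.1 RPKM in wild-type, 51.8-fold lower (interval 34.9 to 80.4). NOL, a chlorophyll b reductase gene, had 4.11 and 7.99 RPKM.

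ANAC036, ANAC090, ANAC061 and ANAC044 were grouped here under defence and ER stress, a label that does not cover every role given below. All 4 were at least 2-fold higher in ago1-36, against a background of 19.6%. Of these, 3 passed the filter through ago1-36 alone (ANAC090, ANAC061 and ANAC044), which set their direction. ANAC036, whose overexpression is known to dwarf the plant, had 72.4 RPKM in ago1-36 and 39 reads (2.91 RPKM) in wild-type, 24.9-fold higher (interval 18.1 to 35.2). ANAC090, a regulator that restrains salicylate responses in ageing leaves, had 50 reads (4.0 RPKM) in ago1-36 and 1 read in wild-type, a 50.3-fold ratio with an interval of 8.62 to 2026. ANAC061 had 16 reads in ago1-36 and 0 in wild-type, 5.36-fold higher when set against the floor, while the lower counting limit was 3.88-fold. ANAC044, which halts the cell cycle after DNA damage, had 86 reads (4.84 RPKM) in ago1-36 and 15 reads (0.839 RPKM) in wild-type, 5.77-fold higher (interval 3.31 to 10.7).

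Of the 9 listed membrane-tethered NAC factors, 2 (22.2%) were at least 2-fold higher, against the background of 19.6%. Their median log2 ratio was 0.52, and 0.06 by the authors' deposited GFOLD score. ANAC062, which is freed from the membrane by cold and by ER stress, had 43.8 RPKM in ago1-36 and 10.2 RPKM in wild-type, 4.30-fold higher (interval 3.74 to 4.95). ANAC091 (TIP), first known as a partner of a viral coat protein, had 69.5 RPKM in ago1-36 and 18.0 RPKM in wild-type, 3.85-fold higher. ANAC016 had 46 reads (1.64 RPKM) in ago1-36 and 12 reads (0.427 RPKM) in wild-type, 3.86-fold higher by the plain ratio (interval 2.01 to 8.00) and under 2-fold with 1 added.

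The remaining tethered factors differed by less than 2-fold. ANAC089, a regulator of cell death under ER stress, had 49.1 RPKM in ago1-36 and 31.6 RPKM in wild-type. ANAC069 had 9.83 and 6.53 RPKM. ANAC017 and ANAC013, which carry mitochondrial distress signals to the nucleus, had 32.1 and 24.2 RPKM in ago1-36 and 24.9 and 24.3 RPKM in wild-type. ANAC013 had a ratio of 0.993 (interval 0.894 to 1.10) and ANAC014 of 0.850 (interval 0.688 to 1.05), so counting error alone covers both differences. ANAC078, an activator of proteasome genes, had 109 RPKM in ago1-36 and 135 RPKM in wild-type.

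A carboxy-terminal anchor can be predicted from the sequence. Translated from the RefSeq coding sequence, 10 of the 33 listed genes had a stretch of 19 residues with a mean Kyte-Doolittle hydropathy of at least 1.6 within the last 60 residues, compared with 10.1% of all listed proteins. These were the 9 above and NAC001 (AT1G01010), which had 29.5 RPKM in ago1-36 and 8.23 RPKM in wild-type. The 9 make up the listed tethered group, so the share among the 33 depends on which members were chosen. Of these 10, 3 passed 2-fold upward, and their log2 ratios had a median of 0.57 and a range from -0.31 to 2.0. Of the 23 lacking such a stretch, 17 did, against a background of 19.6%. The log2 ratios of these 23 had a median of 1.39 and a range from -0.94 to 4.97. Among the 17, CUC1, ANAC055, JUB1, ANAC090, ANAC061 and ANAC044 were kept through ago1-36 alone, which set their direction. The median of 1.39 is the value of ANAC061, which had 0 reads in wild-type. Of the 10 with the stretch, ANAC016 alone was kept that way. Among all 1111 kept genes with such a stretch, 22.1% were at least 2-fold higher and the median was 0.43. The difference between both NAC groups was not tested. The prediction misses NTL9, a factor of the tethered group outside the listed genes, whose highest mean hydropathy was -0.468.

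**Figure D3:**
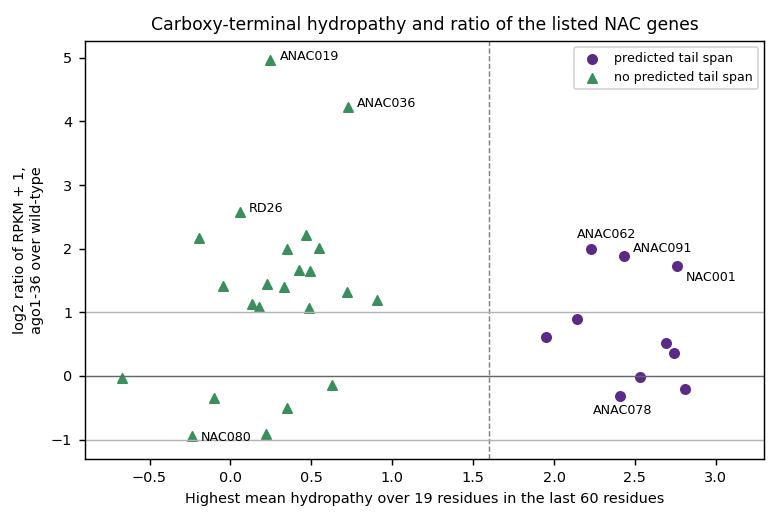
Log2 ratio of RPKM plus 1 (ago1-36 over wild-type) of the 33 listed NAC genes against the highest mean hydropathy over 19 residues in the last 60 residues of the protein, with a dashed line at 1.6 and grey lines at 2-fold. The 10 genes right of the dashed line reach a log2 ratio of at most 2.0, and ANAC019, ANAC036 and RD26 lie left of it.

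Genes of the pathways in which tethered NAC factors act differed from list to list. In the mitochondrial retrograde list of ANAC013 and ANAC017, 8 of 10 were listed, 4 were at least 2-fold higher and 2 lower, against backgrounds of 19.6% and 8.38%. AT12CYS, among the 4, had 22 reads in ago1-36 and 5 reads in wild-type and was kept through ago1-36 alone. OM66, an outer mitochondrial membrane ATPase gene, had 550 RPKM in ago1-36 and 23.54 RPKM in wild-type, 23.4-fold higher (interval 21.7 to 25.2). AOX1A, the alternative oxidase gene used as the classic marker of this response, had 98.5 RPKM in ago1-36 and 43.8 RPKM in wild-type, 2.25-fold higher (interval 2.08 to 2.44). UGT74E2, a glycosyltransferase gene acting on an auxin, and ABCB4, an auxin transporter gene, had log2 ratios of 0.36 and 0.02. The lower members were HSP23.5, with 16.7 RPKM in ago1-36 and 111 RPKM in wild-type, and HSP23.6, with 1 and 21 reads, both genes of mitochondrial small heat shock proteins.

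In the ER stress list, 5 of 8 were listed and BZIP60 alone was at least 2-fold higher, against the background of 19.6%. BZIP60, a transcription factor gene of the unfolded protein response, had 449 RPKM in ago1-36 and 83.0 RPKM in wild-type, 5.40-fold higher. The chaperone genes BIP1, BIP2, CNX1 and CRT1 had log2 ratios from -0.34 to 0.02. Of 6 proteasome subunit genes, 3 were listed, RPT5A, RPN1A and RPN2A, with log2 ratios from -0.31 to 0.33. Of 8 boundary genes acting with CUC factors, STM, the homeobox gene that maintains the shoot meristem, was the one listed, with 1.46 RPKM in ago1-36 and 3.33 RPKM in wild-type, 2.28-fold lower by the plain ratio (interval 1.43 to 3.73).

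**Figure D4:**
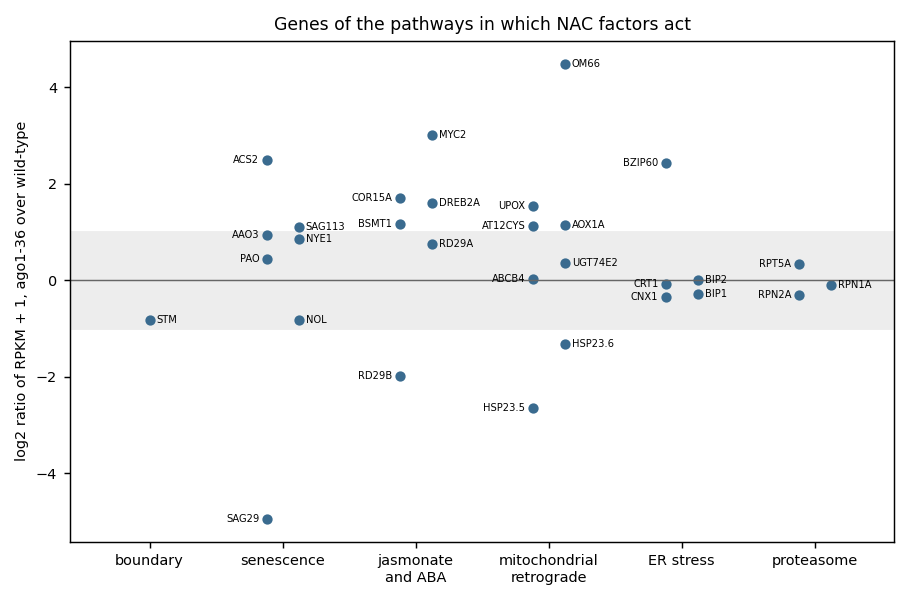
Log2 ratio of RPKM plus 1 (ago1-36 over wild-type) of the listed genes of 6 lists from pathways in which NAC factors act. Each point is 1 gene, and shading marks differences under 2-fold. OM66 is the highest point at 4.49 and SAG29 the lowest at -4.94, and the proteasome genes all lie within the shading.

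Among the other NAC genes, SND2, an activator of secondary wall genes in fibres, had 24 reads (1.39 RPKM) in ago1-36 and 61 reads (3.51 RPKM) in wild-type, 2.53-fold lower by the plain ratio (interval 1.55 to 4.24). The xylem and secondary wall markers IRX3, IRX1, IRX5 and XCP2 had log2 ratios from -1.02 to -0.65, and their part in the value of SND2 was not tested. ANAC052, which recruits a histone demethylase, had 26.1 RPKM in ago1-36 and 28.8 RPKM in wild-type. ANAC082, a mediator of nucleolar stress, had 16.6 and 17 RPKM, and the counting intervals of both ratios include equality. NAC003 (AT1G02220) had 63.0 RPKM in ago1-36 and 15.1 RPKM in wild-type, 4.16-fold higher (interval 3.65 to 4.76).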

How the data were processed

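Seedling RNA of 1 ago1-36 and 1 wild-type sample went into SMART libraries, as the labels' protocols state. Per the submitters' processing notes, the tools and builds included TopHat2 2.0.11 and TAIR10. How reads were counted, on which annotation and whether strand was used are not given in these sources. Per the file headers, the authors deposited 2 RPKM columns, a log2 fold change and a score from GFOLD. Of 11957 lines naming a gene, 291 repeats were dropped, and 2 fragment lines were not used.

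Ratios were taken on the log2 scale after adding 1 to the RPKM of each library, ago1-36 over wild-type, with a filter of 1 RPKM in at least 1 library and a call at 2-fold. No test was possible with 1 library per genotype. Reads were recovered from both RPKM values and the deposited log2 fold change, which equals the log2 ratio of reads plus 1 less 0.177. Where both libraries had 1 to 100 reads, 2017 of 2017 genes came out whole within 0.1. Larger read numbers are estimates, least exact where the libraries are nearly equal, and enter the intervals only. Reads copied by PCR cannot be told from separate molecules here, so counting error is all that the intervals and the 3-read floor (per library) describe. The recovery was also run on simulated data built with the same formula. That checks the arithmetic only, not whether the deposited values follow the formula.

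Target sites, proteins and promoters came from the TAIR10.1 genome and its RefSeq annotation. The longest annotated transcript was scanned without gaps. All 49 members were found in that annotation. Named were the miR164 targets, CUC3 and ORS1 (not analysed here), AGO1, all members past 2-fold and the 2 most different of each list. The other members and pathway genes were named after their values were seen. The members and lists were chosen with earlier results of these data known. Alternatives were 2 pseudocounts, 2 filters, 2 rescalings, the authors' deposited log2 fold change and GFOLD score, and leaving out overlapping genes, and 2 further filters were added after the data were seen. Python 3.11.15, pandas 2.3.3, NumPy 2.4.6, SciPy 1.17.1 and matplotlib 3.10.9 were used.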

Additional observations from a re-analysis of the deposited data

How the results depend on the processing

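No paired analysis was possible because each genotype has 1 library, and no library could be left out. The number of NAC genes at least 2-fold higher in ago1-36 lay between 14 and 21 over the 11 alternatives, against 20. Some alternatives keep fewer genes. The count was 14 of 24 under a filter of 5 RPKM, against a background of 19.1%. It was 14 of 26 without genes that reach 1 RPKM in ago1-36 alone, against 15.6%. By the authors' deposited GFOLD score it was 15 of 33, against 12.2%. The number at least 2-fold lower was 2 in place of 0 with a pseudocount of 0.1, a pseudocount of 0.5, a rescaling to a sum of 1000000 and the authors' deposited log2 fold change. The number of miR164 targets at least 2-fold higher was 1 in place of 2 under a filter of 5 RPKM, by the authors' deposited GFOLD score, without overlapping genes (NAC1), and, in both cases by losing CUC1, with a filter on the mean of both libraries and without genes that reach 1 RPKM in ago1-36 alone. The median log2 ratio of the miR164 targets turned from 0.35 to -0.50 under the last 3 of these, each of which leaves 3 genes. The median of the NAC genes without the site was 1.73 with a pseudocount of 0.1, 1.63 by the authors' deposited log2 fold change, 0.94 by their GFOLD score and 1.09 without genes that reach 1 RPKM in ago1-36 alone, against 1.39. On the scale of the authors' deposited log2 fold change the median of all kept genes was -0.23. By that scale the values of ATAF1 and NAP were both 0.92, that of AOX1A was 0.98, and ANAC013 and ANAC082 stood at -0.19 and -0.22. No NAC gene past 2-fold changed direction under any of the 11 alternatives. Filters and the leaving out of overlapping genes do not alter a gene's own ratio, and a pseudocount cannot change its sign. The rescalings changed the log2 ratio of NAP, the gene nearest above the 2-fold mark, only from 1.07 to 1.13 and 1.11. The authors' deposited log2 fold change is the log2 ratio of the same reads plus 1, less a small constant. Shifts of this size could not turn a gene past 2-fold, so the unchanged directions are no check by these settings. The GFOLD score comes from the same libraries. Of 341 single-gene values, 29 moved by more than 0.5 of the width of their counting interval on the log2 scale. For CUC1 and ANAC061, whose intervals have no upper limit, the mark was a move of more than 1. The 341 include the values that a filter or the leaving out of genes could not move. Differences of genes under about 20 reads in 1 library, such as CUC1, ANAC090 and ANAC061, are limited by depth.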
